A study of Mus musculus with 12 samples.

Results

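The 8 genes described here are members of the NF-kappa-B feedback and inflammasome systems: Nfkbid, Nfkbia, Nfkbiz, Tnfaip3, Nfkb1, Rel, Pycard and Nlrp3. They were chosen by name from the 55401 genes of the deposited counts, and the choice was made because their levels differed between the sorted classes of these same libraries. Differences between those classes are therefore given for the 8 genes as a description, with no test.

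NF-kappa-B is a family of transcription factors held in the cytoplasm by I-kappa-B proteins until a receptor signal has those inhibitors destroyed. The freed factors then switch on genes that include their own inhibitors, so that the response is limited by feedback. One of the induced genes is Nlrp3, the sensor of the inflammasome, a complex in which the adaptor ASC, the product of Pycard, recruits caspase-1 to process interleukin-1 beta. In the brain these systems are best known from microglia and other myeloid cells.

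The study sorted cells by flow cytometry from mice that carry CD51-Flp and, in the Rosa locus, a tdTomato reporter that Flp recombinase turns on by removing a stop. CD51 is integrin alpha-v, the product of Itgav. The groups were hippocampus CD51+ (tdTomato+/GFP+), hippocampus CD51- (tdTomato-/GFP+), cortex CD51+ (tdTomato+/GFP+) and cortex CD51- (tdTomato-/GFP+), with 3 libraries each and 12 in all, and all cells carried both alleles and were sorted as GFP+. What drives GFP, the ages of the mice and whether the 3 libraries of a group came from separate animals are not given in the sources used here, so p-values measure only the spread between these libraries. tdTomato marks cells with Flp activity at any earlier time, which need not be CD51 protein on the sorted cell.

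Total counts ran from 4351897 to 12847183 per library. The cortex CD51+ replicate 3 library stood apart, with 58.4% of its counts in mitochondrial ribosomal RNA, against 1.04% to 3.54% in the other 11. Library names end in G where the titles read CD51+ and in GT where they read CD51-, whereas tdTomato+ cells are the CD51+ ones; what G and GT stand for is not given, and they could point to the opposite classes. Itgav did not settle this, with 369 ± 44.4 CPM in hippocampus CD51+ and 381 ± 172 CPM in CD51- (SD, n = 3 each; edgeR adjusted p = 0.984) and 584 ± 274 CPM in cortex CD51+ and 311 ± 56.7 CPM in CD51- (edgeR adjusted p = 0.269). CPM, the usual count unit scaled to a fixed library size, was computed with library sizes adjusted by the trimmed mean of M values (TMM). Below, CD51+ and CD51- stand for the libraries labelled so in the titles, and every direction between classes rests on those labels. Markers of the labelled cell type were present in all 4 groups: the 12 astrocyte markers summed to 46784 ± 5659.7 CPM in hippocampus CD51+ and 13243 ± 1307 CPM in CD51-, and to 56959 ± 8899 CPM in cortex CD51+ and 6707 ± 4621 CPM in CD51-, and none of the 12 was at 0 in any group.

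Promoter windows are shown because genes of this family are textbook targets of their own factors. RefSeq's table of mouse promoters (GRCm38.p6) held windows of 300 bases, 250 before and 50 after the start site, for 6 of the 8 genes, all but Nfkb1 and Nfkbiz. Both strands were searched for the kappa-B consensus, whose matches are 10 bases long and are printed in capitals in windows read 5′ to 3′ on the gene's own strand.
Nfkbia, chr12:55492598-55492897, minus strand: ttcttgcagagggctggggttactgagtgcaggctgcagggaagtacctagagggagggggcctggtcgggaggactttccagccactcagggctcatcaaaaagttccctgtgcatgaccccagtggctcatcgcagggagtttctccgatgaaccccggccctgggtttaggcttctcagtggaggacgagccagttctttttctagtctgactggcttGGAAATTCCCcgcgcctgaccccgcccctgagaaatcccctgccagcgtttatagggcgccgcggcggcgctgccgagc
Rel, chr11:23770920-23771219, minus strand: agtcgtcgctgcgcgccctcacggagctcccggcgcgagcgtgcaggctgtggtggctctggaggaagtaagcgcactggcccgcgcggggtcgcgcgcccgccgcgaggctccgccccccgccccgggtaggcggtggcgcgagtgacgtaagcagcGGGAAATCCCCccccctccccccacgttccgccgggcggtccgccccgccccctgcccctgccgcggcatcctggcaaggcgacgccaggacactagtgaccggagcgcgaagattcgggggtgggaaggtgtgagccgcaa
Tnfaip3, chr10:19015361-19015660, minus strand: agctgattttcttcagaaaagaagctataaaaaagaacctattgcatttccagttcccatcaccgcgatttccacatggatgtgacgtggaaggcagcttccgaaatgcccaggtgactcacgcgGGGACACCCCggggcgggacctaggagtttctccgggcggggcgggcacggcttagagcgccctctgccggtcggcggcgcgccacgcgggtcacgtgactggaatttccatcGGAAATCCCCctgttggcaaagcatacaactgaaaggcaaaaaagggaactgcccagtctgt
Pycard, chr7:127993818-127994117, minus strand: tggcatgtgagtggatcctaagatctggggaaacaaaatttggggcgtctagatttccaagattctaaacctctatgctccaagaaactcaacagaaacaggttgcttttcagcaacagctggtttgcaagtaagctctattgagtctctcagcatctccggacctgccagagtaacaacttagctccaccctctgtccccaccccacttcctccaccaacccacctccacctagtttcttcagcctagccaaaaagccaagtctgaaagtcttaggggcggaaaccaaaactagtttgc
The Nfkbia match starts 29 bases before the start site. Those of Tnfaip3 start 125 and 12 bases before it, and those of Rel, which overlap each other, 92 and 91 bases before it. Nfkbid had GGGACTTCCC and GGAATTCCCC, 226 and 181 bases before the start site of its window at chr7:30422156-30422455, and Nlrp3 had GGGAACCCCC 186 bases before that of chr11:59541319-59541618. Pycard had none in these 300 bases. In all, 5 of the 6 members had a match in at least 1 of their 10 windows, against 5.14% of the 27025 genes and 4.51% of the 32851 windows of the table. The members share a family in which such matches are part of common knowledge, and a match is a string of letters, not a bound site.

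All 8 genes were lower in CD51+ than in CD51- in both regions, with every CD51+ library below every CD51- library of its region. Among the 12613 genes tested, 16.7% were arranged that way in hippocampus and 16.6% in cortex, and because the members were chosen from these differences nothing is read from their own count. All 8 passed the filter on low counts, which Nfkbid, Pycard and Rel could not have done without the CD51- libraries. The median log2 fold change, with genes at 0 in CD51+ set to their bound, was -6.89 in hippocampus and -7.87 in cortex, beside -0.22 and -0.03 over all genes tested. The values over all genes are medians of the fitted values, with no bound set. Without the cortex CD51+ replicate 3 library the cortical values ran from -4.63 for Nfkb1 to -9.46 for Nfkbiz, with all 8 still lower in CD51+.

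**Figure D1:**
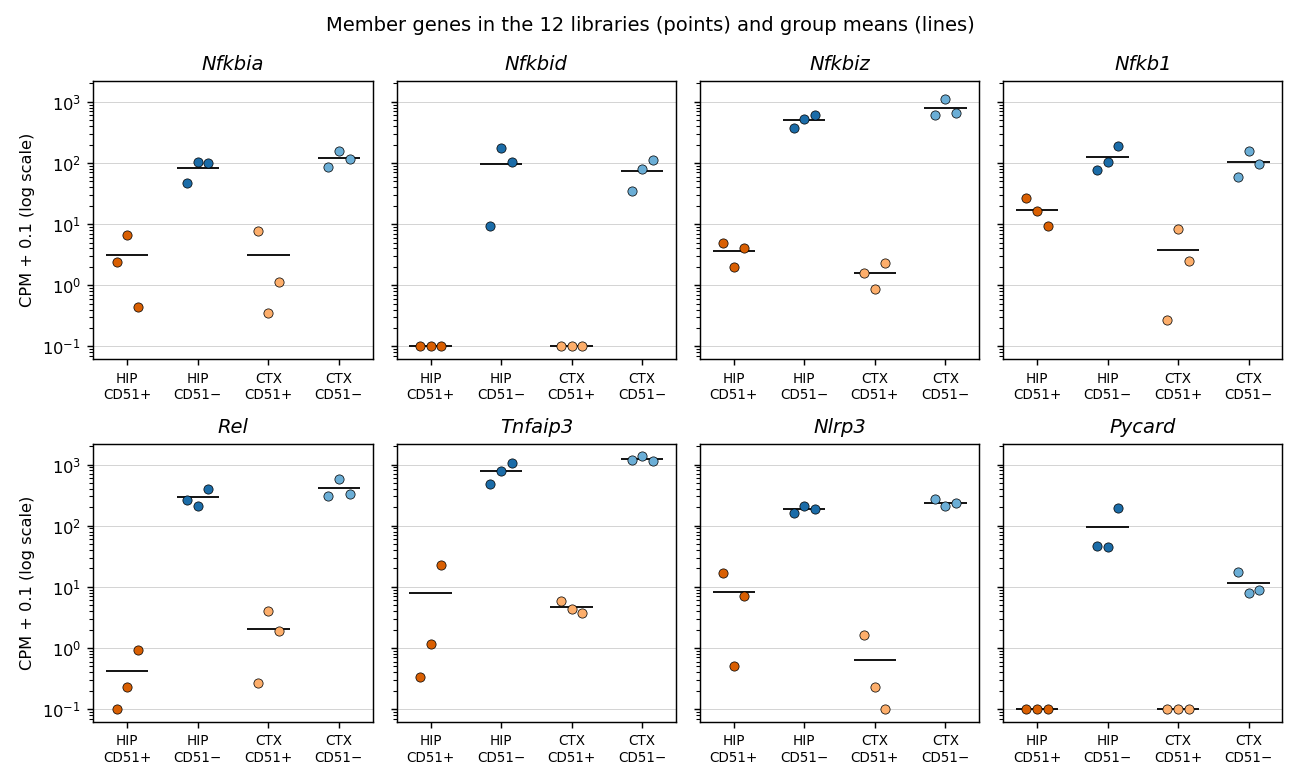
Level of each of the 8 genes in every library, as CPM plus 0.1 on a log scale, with hippocampus (HIP) left of cortex (CTX) and CD51+ left of CD51- in each panel; points are libraries and lines are group means (n = 3). In every panel the CD51+ points of a region lie below its CD51- points, and Nfkbid and Pycard lie at 0 CPM in all 6 CD51+ libraries.

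The inhibitors come first. Nfkbia (chr12:55489410-55492647, minus strand, mm10) encodes I-kappa-B alpha, which holds the factors in the cytoplasm and is resynthesised after each activation. It stood at 2.29, 6.57 and 0.335 CPM in the hippocampus CD51+ libraries and 46.2, 105 and 99.9 CPM in the CD51- libraries, replicates 1 to 3 in order. In cortex it stood at 7.72, 0.256 and 1.01 CPM in CD51+ libraries and 85.5, 154 and 115 CPM in CD51- libraries. The groups did not overlap in either region. The highest library was 19.6 times the lowest in hippocampus CD51+ and 2.28 times in CD51-. The fitted log2 fold change of CD51+ over CD51- was -4.75 ± 1.28 in hippocampus and -5.30 ± 1.32 in cortex (estimate ± SE). It was -6.00 without hippocampus CD51+ replicate 2 and -7.55 without cortex CD51+ replicate 1, the highest library of each group.

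Nfkbiz (chr16:55811375-55838899, minus strand) encodes I-kappa-B zeta, a nuclear member of the family that is itself induced and helps to activate a second set of targets. It was at 4.82, 1.88 and 4.02 CPM in hippocampus CD51+ libraries and 369.5, 531 and 615 CPM in CD51- libraries. Cortex gave 1.51, 0.769 and 2.23 CPM in CD51+ libraries and 602, 1116 and 654 CPM in CD51- libraries. The groups did not overlap, and the 6 CD51+ libraries ran from 0.769 to 4.82 CPM. The log2 fold changes were -7.15 ± 0.76 in hippocampus and -9.04 ± 0.83 in cortex.

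Nfkbid (chr7:30421732-30428746, plus strand) encodes I-kappa-B NS, another nuclear family member. It had no count in any of the 6 CD51+ libraries. In CD51- it was at 9.28, 177 and 104 CPM in hippocampus and 34.8, 78.1 and 111 CPM in cortex, the widest spread of any member in hippocampus CD51-, where the highest library was 19.1 times the lowest. With counts pooled over each group's libraries, and against a floor of 3 counts over the CD51+ group, Nfkbid was at least 553-fold lower in hippocampus CD51+ and at least 420.3-fold lower in cortex CD51+. These limits came down to 322-fold in hippocampus without CD51+ replicate 2 or CD51- replicate 2, and to 245-fold in cortex without CD51+ replicate 2.

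Tnfaip3 (chr10:19000910-19015657, minus strand) encodes A20, a ubiquitin-editing enzyme that shuts off signalling between the receptors and the I-kappa-B kinases. The hippocampus CD51+ libraries had 0.229, 1.07 and 22.3 CPM and the CD51- libraries 481, 789 and 1069 CPM. Cortex CD51+ libraries had 5.71, 4.23 and 3.65 CPM and CD51- libraries 1174, 1359 and 1138 CPM. The groups did not overlap, with 1 CD51+ library of hippocampus well above the other 2. The log2 fold changes were -6.63 ± 1.07 in hippocampus and -8.07 ± 1.14 in cortex. The hippocampus CD51+ replicate 3 library held 133 of the 142 Tnfaip3 counts of its group, and without it the hippocampal value was -10.11. That library also had the highest sum of microglial markers in its group, 1948 CPM against 216 and 433 CPM in replicates 1 and 2. Among the other members with counts, Rel was also highest there, Nfkbiz and Nlrp3 lay in between, and Nfkbia and Nfkb1 were lowest. The 8 members summed to 50.2, 26.2 and 43.6 CPM in replicates 1 to 3. Whether the levels of Tnfaip3 and of the microglial markers are linked was not tested.

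The factors themselves are represented by Nfkb1 and Rel. Nfkb1 (chr3:135584655-135691547, minus strand) encodes p105, the precursor of the p50 subunit, which is both a DNA-binding partner and, unprocessed, an inhibitor. It had 26.2, 16.1 and 9.05 CPM in hippocampus CD51+ libraries and 77.4, 105 and 188 CPM in CD51- libraries. In cortex it had 0.168, 8.34 and 2.44 CPM in CD51+ libraries and 59.3, 157 and 95.3 CPM in CD51- libraries. The groups came closest here, with log2 fold changes of -2.85 ± 1.05 in hippocampus and -4.81 ± 1.15 in cortex, and in hippocampus the lowest CD51- library was 2.96 times the highest CD51+ library. Without cortex CD51+ replicate 2 the cortical value was -6.32.

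Rel (chr11:23736847-23770970, minus strand) encodes c-Rel, a subunit with a transactivation domain that is best known from blood cells. It had 0, 0.134 and 0.838 CPM in hippocampus CD51+ libraries, which is 6 counts in all, and 260.2, 214 and 402 CPM in CD51- libraries. In cortex it had 0.168, 3.85 and 1.83 CPM in CD51+ libraries and 302, 583 and 333 CPM in CD51- libraries. The groups did not overlap, and the log2 fold changes were -9.71 ± 1.21 in hippocampus and -7.68 ± 1.09 in cortex. In hippocampus this was the largest value among the 6 members with counts in both classes. It was -11.58 without CD51+ replicate 3, which held 5 of the 6 counts, and the cortical value was -8.68 without CD51+ replicate 2.

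The remaining members belong to the inflammasome. Nlrp3 (chr11:59541568-59566956, plus strand), the sensor, had 16.7, 0.402 and 7.04 CPM in hippocampus CD51+ libraries and 159, 211 and 191 CPM in CD51- libraries. In cortex it had 1.51, 0.128 and 0 CPM in CD51+ libraries and 269.8, 209.6 and 233 CPM in CD51- libraries. The groups did not overlap, and its CD51- levels were even, the highest library being 1.32 times the lowest in hippocampus and 1.29 times in cortex. The log2 fold changes were -4.54 ± 1.11 in hippocampus and -8.72 ± 1.36 in cortex. They were -5.66 without hippocampus CD51+ replicate 1 and -11.36 without cortex CD51+ replicate 1.

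Pycard (chr7:127989708-127993867, minus strand), the adaptor, had no count in any CD51+ library. In CD51- it was at 47.2, 45.3 and 194 CPM in hippocampus and 17.1, 7.91 and 8.899 CPM in cortex, so that every hippocampal CD51- library was above every cortical one. It was at least 559-fold lower in hippocampus CD51+ and at least 75.96-fold lower in cortex CD51+, on the same pooled counts and floor. These limits came down to 325-fold without CD51+ replicate 2 and 277-fold without CD51- replicate 3 in hippocampus, and to 44.4-fold without CD51+ replicate 2 in cortex. The exons of Pycard overlap those of the opposite-strand gene Gm45205 over 485 bases, and counting was unstranded, but that neighbour held only 38 counts over the 12 libraries. No other member overlaps another gene.

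These are bulk libraries, in which fewer cells of a type and less RNA per cell cannot be told apart. Markers of some other cell types moved with the members, and those of others did not. The 14 microglial markers summed to 865 ± 943 CPM in hippocampus CD51+ and 8271 ± 1833 CPM in CD51-, and to 700.2 ± 423 CPM in cortex CD51+ and 12597 ± 1963 CPM in CD51- (mean ± SD, n = 3 each), and 7 of 14 were called lower in hippocampus CD51+ and 10 of 14 in cortex CD51+ by the edgeR test described below. Of all genes tested, 2.7% were called lower in hippocampus CD51+ and 6.27% in cortex CD51+. All 14 microglial markers had counts in every group except Aif1, which was at 0 in cortex CD51+. The 8 members summed to 39.99 ± 12.4 CPM in hippocampus CD51+ and 2164 ± 707 CPM in CD51-, and to 15.2 ± 3.497 CPM in cortex CD51+ and 2966 ± 609.9 CPM in CD51-.

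Border macrophage and monocyte markers, 8 genes, summed to 8.05 ± 9.01 CPM in hippocampus CD51+ and 371 ± 59.9 CPM in CD51-, and to 3.51 ± 5.93 CPM in cortex CD51+ and 199 ± 145 CPM in CD51-. Of these, Cd163, Lyve1 and Ccr2 were at 0 in both CD51+ groups and Ly6c2 in all 4 groups. The 9 markers of other leukocytes summed to 6.49 CPM or less in every library, and the T cell gene Cd3e and Nkg7 were at 0 in all 4 groups. The 10 oligodendrocyte markers summed to 2950.1 ± 1852 CPM in hippocampus CD51+ and 23199 ± 15454 CPM in CD51-, and to 2769 ± 64.2 CPM in cortex CD51+ and 43191 ± 17535 CPM in CD51-. Immediate early genes, 12 genes such as Fos and Egr1 that are induced within minutes of stimulation or cell handling, summed to 249 ± 153 CPM in hippocampus CD51+ and 8301 ± 3062 CPM in CD51-, and to 113 ± 73.04 CPM in cortex CD51+ and 13564 ± 2420.4 CPM in CD51-. Nfkbia, Nfkbiz and Tnfaip3 are themselves fast-induced genes. By the edgeR test 4 of 6 border macrophage and monocyte markers were lower in hippocampus CD51+ and 5 of 6 in cortex CD51+, and 2 of 9 and 4 of 9 oligodendrocyte markers, in the same order of regions. Of the immediate early genes 9 of 12 were lower in hippocampus CD51+ and 12 of 12 in cortex CD51+, whereas 6 of 12 and 10 of 12 astrocyte markers were higher. Over all genes tested, 2.7% were called lower and 0.618% higher in hippocampus CD51+, and 6.27% and 5.05% in cortex CD51+. Cd163, Lyve1 and Klf2 had no count in either CD51+ group, so they could only be called lower. Of the 2 oligodendrocyte precursor, 3 endothelial, 2 pericyte and fibroblast and 7 neuronal markers that could be tested, the one call was Pdgfrb, higher in cortex CD51+. Neuronal markers summed to 260 ± 111 CPM in hippocampus CD51+ and 75.2 ± 55.3 CPM in CD51-. In cortex they summed to 235 ± 164 and 204 ± 78.6 CPM. Precursor markers summed to 65.0 ± 12.9 and 39.9 ± 31.3 CPM in hippocampus, and 89.0 ± 105 and 16.5 ± 14.3 CPM in cortex. Mean endothelial sums were lower in CD51+ in both regions, and pericyte and fibroblast sums in hippocampus only. The part of these cell types and of the early genes in the members' levels was not tested.

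**Figure D2:**
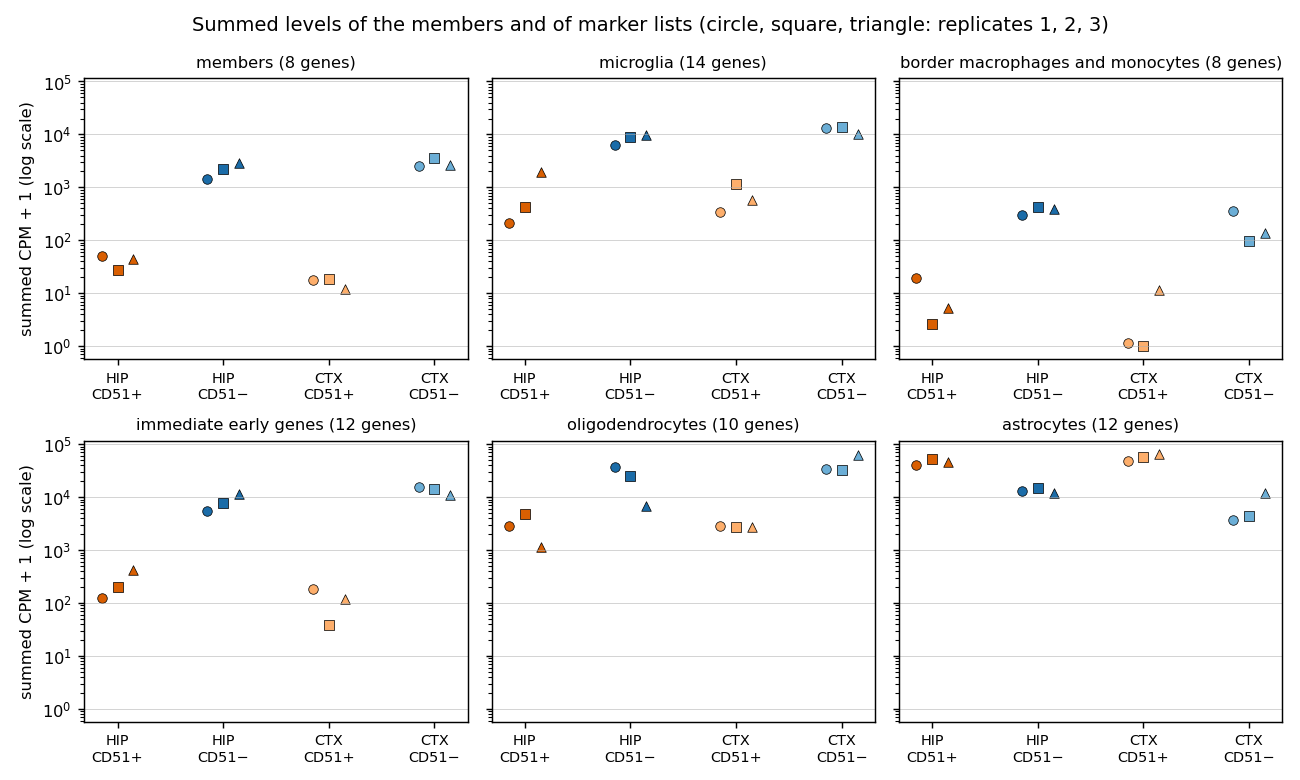
Summed CPM plus 1 (log scale) of the 8 members and of 5 marker lists in each of the 12 libraries, with CD51+ left of CD51- in each region; circles, squares and triangles are replicates 1, 2 and 3. The members, the microglial, border macrophage and oligodendrocyte markers and the immediate early genes all lie lower in CD51+, and the astrocyte markers lie higher.

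Within CD51- the members' levels can be ordered per kilobase of exon. In hippocampus CD51- the order was Tnfaip3 at 108 ± 40.7, Nfkbiz at 101 ± 24.9, Nfkbia at 52.02 ± 20.3, Nlrp3 at 46.1 ± 6.39, Nfkbid at 41.3 ± 35.9, Rel at 39.1 ± 13.2, Pycard at 25.1 ± 22.5 and Nfkb1 at 10.2 ± 4.798 CPM per kb (SD, n = 3). The ranges of neighbours overlapped at every step but one, that between Nfkbiz and Nfkbia. In cortex CD51- it was Tnfaip3 at 169 ± 16.4, Nfkbiz at 158 ± 56.4, Nfkbia at 73.4 ± 21.5, Nlrp3 at 58.5 ± 7.48, Rel at 54.4 ± 20.6, Nfkbid at 31.8 ± 16.3, Nfkb1 at 8.604 ± 4.08 and Pycard at 2.98 ± 1.33 CPM per kb. There the ranges were separate between Nfkbiz and Nfkbia, between Nfkbid and Nfkb1, and between Nfkb1 and Pycard. By this measure Tnfaip3 ranked 149 of the 19595 genes with a count in hippocampus CD51- and 104 of 17111 in cortex CD51-. In CD51+ the highest member per kilobase was Nlrp3 in hippocampus, at 1.99 ± 2.03 CPM per kb, and Nfkbia in cortex, at 1.86 ± 2.55 CPM per kb, each with an SD above its mean.

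**Figure D3:**
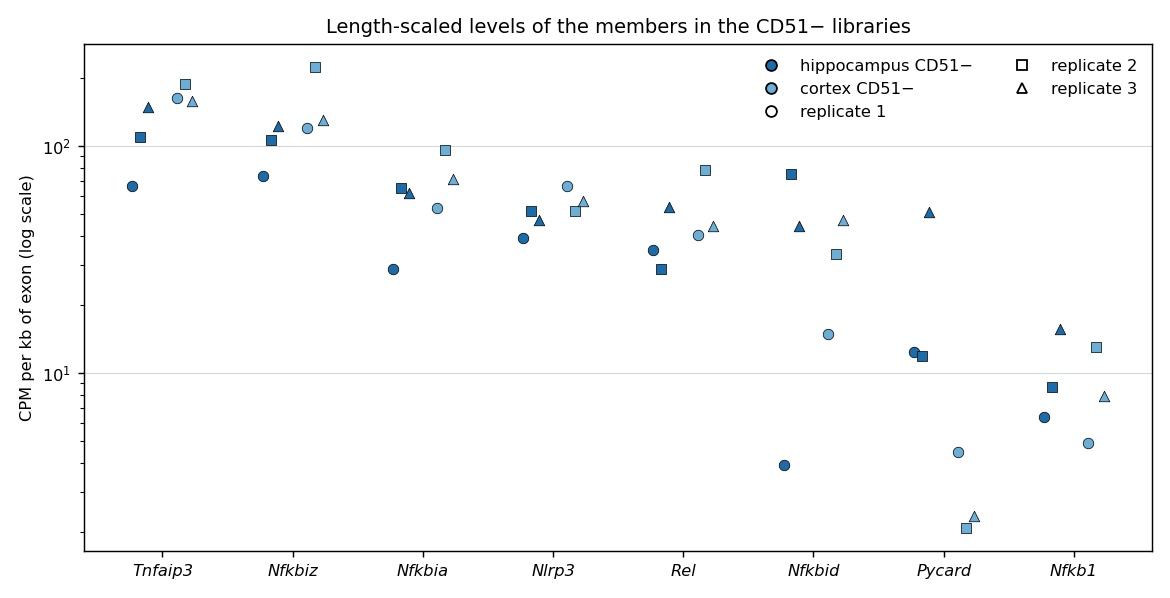
CPM per kilobase of exon (log scale) of the 8 members in the 6 CD51- libraries, hippocampus left of cortex for each gene, with circles, squares and triangles for replicates 1, 2 and 3. Tnfaip3 and Nfkbiz lie highest in both regions, Nfkb1 lies low in both, and Pycard is the gene whose regions stand farthest apart.

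Regions were compared with the quasi-likelihood F test of edgeR over all 12613 genes tested, with Benjamini-Hochberg adjustment and a threshold of 0.05, averaging the hippocampus-to-cortex difference over both classes, a contrast the choice of members did not use. No call was made among the 6 members with a value, 2 of the 6 had an unadjusted p under 0.05, and DESeq2 and limma-voom also called 0. The background was 0.159% of genes called higher in hippocampus and 0.0317% lower, with 1906 of 12613 at an unadjusted p under 0.05. The log2 difference of hippocampus over cortex was 1.75 ± 0.72 for Nlrp3 (edgeR unadjusted p = 0.0238, adjusted p = 0.240) and -1.49 ± 0.63 for Rel (edgeR unadjusted p = 0.0271, adjusted p = 0.256). The other values were 1.23 ± 0.70 for Nfkb1, -0.23 ± 0.78 for Nfkbia, 0.30 ± 0.42 for Nfkbiz and 0.07 ± 0.59 for Tnfaip3. In CD51+ libraries Nlrp3 had 118 counts in hippocampus and 10 in cortex, and Rel had 6 counts in hippocampus and 40 in cortex, while in CD51- alone neither had an unadjusted p under 0.05. Without hippocampus CD51+ replicate 3 the Tnfaip3 value turned to -1.68 (edgeR unadjusted p = 0.00137, adjusted p = 0.108).

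A comparison in the CD51- libraries alone, where all 8 members have counts, was added after the data were seen. In it edgeR called 0 members, with 1 at an unadjusted p under 0.05, and DESeq2 and limma-voom also called 0 members. Of all genes edgeR called 0% in either direction, with 1664 at an unadjusted p under 0.05, while DESeq2 called 555 higher and 133 lower and limma-voom 96 higher and 13 lower. The member with the low unadjusted p was Pycard, with a log2 difference of 3.08 ± 1.36 (edgeR unadjusted p = 0.0358, adjusted p = 0.338), and it was higher in 3 of 3 hippocampal libraries than in any cortical one, as were 10.4% of all genes. Tnfaip3 lay the other way, with every hippocampal library below every cortical one, as in 4.25% of all genes, and a difference of -0.65 ± 0.84 (edgeR adjusted p = 0.866). The remaining values lay between -0.65 ± 0.58 for Nfkbiz and 0.38 ± 1.13 for Nfkbid, with overlapping groups. The microglial markers in these libraries summed to 6231, 8802 and 9780.2 CPM in hippocampus and 13504, 13942 and 10344 CPM in cortex, all 3 hippocampal sums below the cortical ones.

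The rest of the pathway was followed in 6 lists of 132 genes, of which 105 passed the filter. The lists were written from textbook knowledge, with earlier results of these data known. Their calls between classes are therefore a description, not independent support. Genes with values here are the leading ones of each list by p, and Rela, Bcl3, Tlr3, Chuk, Ikbkb, Sod2, Nlrc4, Casp1, Il18, Gsdmd and Nek7 were added after their values were seen, as were the genes that are only named. In hippocampus CD51+ the edgeR test called 25 of the 105 lower and 0 higher, against 2.7% of all genes lower and 0.618% higher. In cortex CD51+ it called 42 lower and 0 higher, against 6.27% lower and 5.05% higher. Many of the called genes could pass the filter only through the CD51- libraries. Examples are Gsdmd and Zc3h12a, with no count in either CD51+ group, and Relb and Cxcl2, with 1 count in each. Tnf had 1 count in hippocampus CD51+ and 3 in cortex CD51+, Ccl2 had 1 and 2, and Plau 0 and 2. Such genes could be called lower but not higher, so nothing is read from the absence of higher calls. Of the 105, 1 was higher in hippocampus and 2 in cortex at an unadjusted edgeR p under 0.05. DESeq2 called 1 higher in each region, the interleukin-1 receptor gene Il1r1 in hippocampus and the RNA sensor gene Tlr3 in cortex, and limma-voom called 0. Of the genes called lower, 24 were shared, which is 96% of the hippocampal list and 57.1% of the cortical one. The median log2 fold change of the 105, with genes at 0 set to their bound, was -3.39 in hippocampus and -4.44 in cortex. With each of the 12 libraries left out in turn, 14 of the 25 hippocampal calls and 28 of the 42 cortical calls held every time. Leaving out hippocampus CD51+ replicate 2 took the hippocampal count to 15, and leaving out the mitochondria-rich cortex CD51+ replicate 3 took the cortical count to 35.

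**Figure D4:**
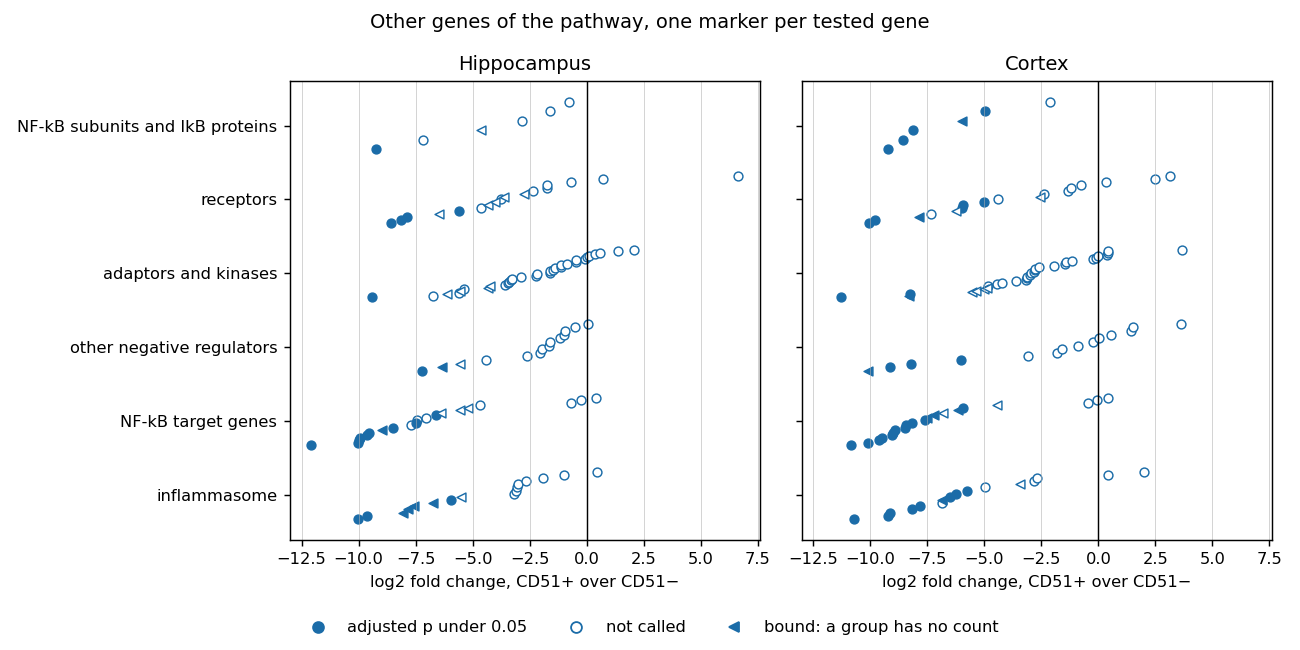
Log2 fold change of CD51+ over CD51- for the tested genes of 6 pathway lists, hippocampus on the left and cortex on the right; filled markers passed an edgeR adjusted p of 0.05 and left-pointing triangles are bounds for genes with no count in CD51+ (Traf1, with 2 counts in cortex, is not drawn there). Filled markers, 25 in hippocampus and 42 in cortex, all lie left of 0.

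Among the other subunits and I-kappa-B genes, 1 of 6 tested was called lower in hippocampus CD51+ and 5 of 6 in cortex CD51+, with medians of -3.75 and -7.08. Relb, a subunit of the slower alternative pathway, had 1 count in each CD51+ group and fell in both regions, with 0.0558 ± 0.0967 CPM in CD51+ and 43.6 ± 42.1 CPM in CD51- in hippocampus (edgeR adjusted p = 0.0215) and 0.0560 ± 0.0970 CPM in CD51+ and 19.99 ± 6.96 CPM in CD51- in cortex (edgeR adjusted p = 0.0173). Its hippocampal call was lost without CD51+ replicate 1 or 2 or CD51- replicate 3, and its cortical call without CD51+ replicate 2 or 3. Nfkb2, the precursor gene of p52, was at 0.223 ± 0.387 CPM in CD51+ and 34.5 ± 16.02 CPM in CD51- in hippocampus (edgeR adjusted p = 0.0587) and fell in cortex, at 0.0676 ± 0.117 CPM in CD51+ and 44.8 ± 61.1 CPM in CD51- (edgeR adjusted p = 0.0125, lost without cortex CD51- replicate 2). Nfkbie, which encodes I-kappa-B epsilon, was at 6.57 ± 10.7 CPM in CD51+ and 47.4 ± 19.9 CPM in CD51- in hippocampus (edgeR adjusted p = 0.304) and fell in cortex, at 0.203 ± 0.351 CPM in CD51+ and 76.3 ± 34.8 CPM in CD51- (edgeR adjusted p = 0.00651).

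Rela, the main transactivating partner of p50, is set beside Rel per kilobase. It was at 4.603 ± 5.83 CPM per kb in hippocampus CD51+ and 14.1 ± 4.52 CPM per kb in CD51- (edgeR adjusted p = 0.554), and at 0.943 ± 0.717 CPM per kb in cortex CD51+ and 29.8 ± 20.5 CPM per kb in CD51-, where it fell (edgeR adjusted p = 0.0270, lost without cortex CD51+ replicate 1 or 2 or CD51- replicate 3). In hippocampus CD51+ the mean of Rela per kilobase was thus above that of Rel, 0.0434 ± 0.0603 CPM per kb, whereas in CD51- it was 14.1 ± 4.52 against 39.1 ± 13.2 CPM per kb for Rel. Nfkbib, which encodes I-kappa-B beta, passed in neither region and had 14.3 ± 19.4 CPM per kb in hippocampus CD51+ and 24.6 ± 16.98 in CD51-, and 4.35 ± 6.57 CPM per kb in cortex CD51+ and 18.9 ± 3.56 in CD51-. Bcl3, a nuclear I-kappa-B gene, had no count in either CD51+ group and fell in cortex (edgeR adjusted p = 0.0482, lost without any 1 of the 12 libraries), where CD51- held 50, 190 and 39 counts.

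Of 17 receptor genes tested, 4 were called lower in hippocampus CD51+ and 6 in cortex CD51+, with medians of -3.77 and -4.42. Tlr7, the endosomal sensor of single-stranded RNA, was at 12 ± 10.4 CPM in CD51+ and 586 ± 74.9 CPM in CD51- in hippocampus, a log2 fold change of -5.61 ± 1.07 (edgeR adjusted p = 0.00302), and at 18.1 ± 27.8 CPM in CD51+ and 589 ± 9.88 CPM in CD51- in cortex, a log2 fold change of -5.02 ± 1.04 (edgeR adjusted p = 0.00293). Cd14, the co-receptor for bacterial lipopolysaccharide, fell in both regions, with 0.274 ± 0.365 CPM in CD51+ and 62.9 ± 27.2 CPM in CD51- in hippocampus (edgeR adjusted p = 0.00817, lost without CD51+ replicate 2) and 0.0560 ± 0.0970 CPM in CD51+ and 62.5 ± 38.4 CPM in CD51- in cortex (edgeR adjusted p = 0.00153). Tnfrsf1b, the gene of the second TNF receptor, had 1 count in each CD51+ group and fell in hippocampus (edgeR adjusted p = 0.0180, lost without any 1 of the CD51+ replicates or without cortex CD51- replicate 1) and in cortex (edgeR adjusted p = 0.00274). Tlr9 was also called in both regions, a call that 5 single libraries could end in hippocampus and 6 in cortex, and Tlr5 and Tlr13 were called in cortex. Tlr3 did not pass and had 272 ± 48.1 CPM in CD51+ and 166 ± 145 CPM in CD51- in hippocampus and 353 ± 236 CPM in CD51+ and 62.2 ± 47.5 CPM in CD51- in cortex (edgeR adjusted p = 0.0527).

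Adaptors and kinases, the middle of the pathway, gave the smallest shares of calls, 1 of 32 in hippocampus CD51+ and 3 of 32 in cortex CD51+. These lie near the 2.7% and 6.27% of all genes called lower. The medians were -1.90 and -2.90. Map3k8, which encodes the kinase Tpl2 that is bound by p105, was at 0.112 ± 0.193 CPM in CD51+ and 88.95 ± 57.6 CPM in CD51- in hippocampus (edgeR adjusted p = 0.00253) and at least 319-fold lower in cortex CD51+, where it had no count (edgeR adjusted p = 7.46e-04). Birc3, an inhibitor-of-apoptosis ubiquitin ligase gene, was at 5.64 ± 7.18 CPM in CD51+ and 54.7 ± 5.88 CPM in CD51- in hippocampus (edgeR adjusted p = 0.111) and fell in cortex, at 0.0855 ± 0.148 CPM in CD51+ and 288 ± 269 CPM in CD51- (edgeR adjusted p = 1.64e-04). Card9, an adaptor of fungal receptors, passed in cortex with 1 count in CD51+ (edgeR adjusted p = 0.0443), a call lost without any 1 of the cortex libraries or of the hippocampus CD51- libraries. The I-kappa-B kinase genes did not pass: in cortex Chuk was at 24.3 ± 6.16 CPM in CD51+ and 17.9 ± 7.63 CPM in CD51-, Ikbkb at 9.04 ± 9.6 CPM in CD51+ and 70.7 ± 79.5 CPM in CD51- and Ikbkg at 4.29 ± 5.15 CPM in CD51+ and 0.324 ± 0.365 CPM in CD51-. In hippocampus Chuk was at 10.2 ± 3.26 CPM in CD51+ and 31.4 ± 18.1 CPM in CD51-, Ikbkb at 27.9 ± 22 CPM in CD51+ and 61.7 ± 9.81 CPM in CD51- and Ikbkg at 21.5 ± 14.7 CPM in CD51+ and 29.3 ± 19.1 CPM in CD51-.

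Of 14 other negative regulators, 2 were called lower in hippocampus CD51+ and 4 in cortex CD51+, with medians of -1.82 and -1.25. Zfp36, which encodes tristetraprolin, a protein that destabilises cytokine mRNA, was at 13.02 ± 10.2 CPM in CD51+ and 1963 ± 1001 CPM in CD51- in hippocampus, a log2 fold change of -7.23 ± 1.07 (edgeR adjusted p = 3.12e-04), and at 45.8 ± 65.4 CPM in CD51+ and 3033 ± 669.9 CPM in CD51- in cortex, -6.05 ± 1.01 (edgeR adjusted p = 5.19e-04). Its hippocampal call was not ended by leaving out any single library, but it did not hold under every alternative processing. Zc3h12a, which encodes the ribonuclease Regnase-1, had no count in CD51+ and was at least 80.1-fold lower in hippocampus (edgeR adjusted p = 0.0245) and at least 1105-fold lower in cortex (edgeR adjusted p = 0.00183). The cortical value rested on CD51- replicate 2, which had 562 CPM against 6.75 and 4.67 CPM in replicates 1 and 3, and the call was lost without it; the hippocampal call was lost without CD51+ replicate 2 or 3 or cortex CD51- replicate 2. Socs3, a feedback inhibitor of cytokine signalling, was at 2.85 ± 2.12 CPM in CD51+ and 60.8 ± 56.9 CPM in CD51- in hippocampus (edgeR adjusted p = 0.0779) and fell in cortex, at 0.135 ± 0.234 CPM in CD51+ and 75.7 ± 24.6 CPM in CD51- (edgeR adjusted p = 0.00162). Tnip2, an A20-binding inhibitor gene, was the remaining call in cortex, and 4 single libraries could end it.

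Of 20 target genes tested, 10 of 20 were lower in hippocampus CD51+ and 15 of 20 in cortex CD51+, with medians of -7.46 and -7.89. The chemokine gene Ccl3 was at 0.503 ± 0.443 CPM in CD51+ and 572 ± 139.9 CPM in CD51- in hippocampus, a log2 fold change of -10.04 ± 0.99 (edgeR adjusted p = 2.19e-06), and at 0.893 ± 0.648 CPM in CD51+ and 984 ± 552 CPM in CD51- in cortex, -10.12 ± 0.99 (edgeR adjusted p = 1.30e-06). The related chemokine gene Ccl4 was at 0.0558 ± 0.0967 CPM in CD51+ and 311 ± 194 CPM in CD51- in hippocampus (edgeR adjusted p = 2.07e-06) and at 2.12 ± 0.892 CPM in CD51+ and 413 ± 117 CPM in CD51- in cortex (edgeR adjusted p = 2.37e-05). Cd83, a surface protein of activated myeloid cells, was at 5.29 ± 7.89 CPM in CD51+ and 969.9 ± 405 CPM in CD51- in hippocampus, -7.49 ± 1.12 (edgeR adjusted p = 3.72e-04), and at 3.93 ± 1.89 CPM in CD51+ and 1901 ± 755 CPM in CD51- in cortex, -8.92 ± 1.19 (edgeR adjusted p = 7.82e-05). The cytokine genes Tnf and Il1a, the chemokine genes Ccl2 and Cxcl2, the adhesion gene Icam1, and Ier3 and Plau were also called lower in both regions, and Cxcl10, Ptgs2, Irf1, Csf1 and Bcl2a1b were called in cortex. Bcl2a1b is one of several near-identical gene copies, so its count is uncertain. Single libraries could end the calls of Cxcl2 and Icam1 in hippocampus (CD51+ replicate 2) and of Cxcl10 (3 libraries), Irf1 (4 libraries) and Bcl2a1b (7 libraries) in cortex. Sod2, the mitochondrial superoxide dismutase gene, passed in neither region, with 47.1 ± 30.4 CPM in CD51+ and 34.9 ± 26.6 CPM in CD51- in hippocampus and 30.8 ± 20.4 CPM in CD51+ and 42.4 ± 34.1 CPM in CD51- in cortex.

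Of 16 other inflammasome genes tested, 7 were called lower in hippocampus CD51+ and 9 in cortex CD51+, with medians of -4.33 and -6.38. Sensors besides Nlrp3 were among them. Aim2, the sensor of cytosolic DNA, was at 0.112 ± 0.193 CPM in CD51+ and 104 ± 25.04 CPM in CD51- in hippocampus (edgeR adjusted p = 0.00113) and at 1.74 ± 2.51 CPM in CD51+ and 137 ± 37.8 CPM in CD51- in cortex (edgeR adjusted p = 0.00435), and Nlrp1b and Naip5 were called in both regions. The Nlrp1b call was lost without 4 single libraries in hippocampus and 2 in cortex. The Naip genes are near-identical copies between which reads may be shared. Nlrc4 was not tested, with 7, 0 and 15 counts in the hippocampus CD51- libraries and none in CD51+.

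Among the caspases, Casp4, the gene of mouse caspase-11, the caspase of the noncanonical inflammasome, was at 0.399 ± 0.0620 CPM in CD51+ and 424 ± 192 CPM in CD51- in hippocampus, a log2 fold change of -10.01 ± 1.19 (edgeR adjusted p = 2.97e-05), and at 0.474 ± 0.820 CPM in CD51+ and 756 ± 315 CPM in CD51- in cortex, -10.73 ± 1.22 (edgeR adjusted p = 1.71e-05). Casp1, the enzyme that Pycard recruits, was too sparse to test, with 0, 0 and 2 counts in hippocampus CD51+ and 3, 0 and 160 in CD51-, and 0, 0 and 1 counts in cortex CD51+ and 176, 4 and 1 in CD51-. Nearly all Casp1 counts thus lay in 1 library of each CD51- group. Per kilobase, hippocampus CD51- held 114 ± 51.6 CPM of Casp4, 25.1 ± 22.5 of Pycard and 1.57 ± 2.65 of Casp1, and cortex CD51- 204 ± 84.9, 2.98 ± 1.33 and 1.64 ± 2.68 CPM in the same order of genes. Casp8 was at 19.4 ± 6.42 CPM in CD51+ and 175 ± 45.8 CPM in CD51- in hippocampus (edgeR adjusted p = 0.0697) and fell in cortex, at 0.709 ± 1.06 CPM in CD51+ and 173 ± 83.2 CPM in CD51- (edgeR adjusted p = 2.39e-04).

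Of the cytokine genes whose products the complex processes, Il1b fell, with 1.65 ± 2.74 CPM in CD51+ and 98.4 ± 57.1 CPM in CD51- in hippocampus, a log2 fold change of -5.93 ± 1.47 (edgeR adjusted p = 0.0238, lost without CD51+ replicate 2 or 3), and 0.246 ± 0.321 CPM in CD51+ and 139.9 ± 103 CPM in CD51- in cortex, -9.15 ± 1.72 (edgeR adjusted p = 0.00145). Il18 passed in neither region and had 94.96 ± 94.9 CPM in CD51+ and 70 ± 25.7 CPM in CD51- in hippocampus (edgeR adjusted p = 0.873) and 182 ± 32.6 CPM in CD51+ and 44.7 ± 39.5 CPM in CD51- in cortex (edgeR adjusted p = 0.147). Gsdmd, the pore-forming gasdermin that caspases cleave, had no count in either CD51+ group and was called in both, the calls being lost without any 1 of the CD51+ libraries of the region and, in hippocampus, without CD51- replicate 1, with 951, 104 and 24 counts in hippocampus CD51- and 213, 126 and 162 in cortex CD51-. Nek7, the kinase that licenses Nlrp3, passed in neither region and had 115 ± 85.7 CPM in CD51+ and 229 ± 112 CPM in CD51- in hippocampus and 229 ± 21.1 CPM in CD51+ and 171 ± 75.4 CPM in CD51- in cortex.

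Between regions no pathway gene was called by edgeR. At an unadjusted p under 0.05 were 18 of 105 when averaged over the classes and 9 of 105 in CD51- alone. The same counts over all 12613 genes tested were 1906 and 1664. DESeq2 called 2 higher in hippocampus (Casp8 and Ikbkg) and 4 lower (Ccl4, Il1rap, Naip6 and Tollip) on average, and limma-voom 0. Of all 12613 genes DESeq2 called 501 higher and 230 lower in this contrast, so nothing is read from the pathway count. Leading values, hippocampus over cortex, were -2.65 ± 0.63 for Ccl4 (edgeR adjusted p = 0.0718), -3.99 ± 1.13 for the receptor chain gene Il1rap (edgeR adjusted p = 0.0944) and 2.34 ± 0.67 for Casp8 (edgeR adjusted p = 0.0944). The other leading genes of the lists were Ly96, Naip6, Tollip, Ikbkg, Traf1, Csf1, Socs3, Nfkbie and Nfkbib, with edgeR adjusted p between 0.105 and 0.686. The class effects of the 19 named genes were also compared between regions. The edgeR test called 0 of 19 interactions, 5 of 19 having an unadjusted p under 0.05. Of all 12613 genes it called 0, with 1583 at an unadjusted p under 0.05. Calls made in 1 region alone are thus not shown to differ between regions.

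The genes whose profiles lay nearest to each member were found over the 12 libraries among 4682 genes averaging at least 20 CPM, by the root mean square difference of log2 CPM (prior count 2) after centring each gene on its mean. The smaller the value, the more alike the profiles. Nearest to Nfkbia were Ssh2 at 0.666 and Numb at 0.911 log2 units, and nearest to Nfkbiz were Stab1 at 0.442, the closest match of any member, and Vav1 at 0.624. Nfkbid lay nearest to the heat shock gene Hspa1a at 0.678 and to Klf2 at 0.730, Tnfaip3 to C3ar1 at 0.823 and Il6ra at 0.958, and Rel to Mgat4a at 0.666 and Aim2 at 0.672. Nfkb1 lay nearest to Txnip at 0.931 and P2rx7 at 0.993, Nlrp3 to Rgs2 at 0.992 and Junb at 1.04, and Pycard to Plk3 at 0.839 and Slc2a5 at 1.02. All these profiles share the same libraries and the same difference between classes. Among the members themselves the closest pair was Nfkbid and Nfkbiz at 1.02 and the farthest Nfkb1 and Tnfaip3 at 3.03 log2 units.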

How the data were processed

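RNA from sorted cells (10 ng per library) was made into cDNA libraries with a high-sensitivity kit and sequenced in pairs of 150 bases, per the labels' protocols. The deposited values are raw read-pair counts per gene, made by the authors with featureCounts 2.0.4 on GENCODE vM25, unstranded and from primary alignments, per the file headers. STAR, mm10 and DESeq2 1.40.2 are named in the submitters' processing notes. Gene IDs were matched to symbols for 55141 of 55401 genes, and no per-sample column was left unused.

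Libraries were grouped by title. The 12 were fitted together with edgeR 4.0.16 (R 4.3.3): TMM factors, filterByExpr with a minimum count of 10 and total of 15, a quasi-likelihood F test per contrast and Benjamini-Hochberg adjustment over the 12613 genes kept, with 0.05 as threshold. The biological coefficient of variation was 1.28, so only large differences could pass. The code was tested on simulated data. A gene with no count in a group was given a bound from a floor of 3 counts over the group, which covers counting error only. CPM per kb used the exonic length in the file. Replicate numbers were not used to pair the libraries, and whether libraries of the same number share animals is not given.

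The members and lists were chosen with earlier results of these data known. Beside the 8 members and Itgav, the text names for each pathway list up to 3 genes with the smallest cortex p and up to 2 with the smallest hippocampus and region p, and for each member the 2 genes of nearest profile; other names were chosen after their values were seen. There were 10 marker lists. Alternatives were RLE and upper-quartile factors, TMM without mitochondrial genes, no filter, 1 CPM in 3 libraries, DESeq2 1.42.0, limma-voom (limma 3.58.1), robust dispersion, a replicate block, 1 region alone, and each library left out. Python 3.11.15 with pandas 2.3.3 and matplotlib 3.10.9 made the summaries and figures.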

Additional observations from a re-analysis of the deposited data

How the results depend on the processing

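The CD51+ to CD51- direction held under every alternative for the 6 members with counts in both classes, and for the limits of Nfkbid and Pycard under those computed (RLE and upper-quartile factors, mitochondrial genes left out, 1 region alone, 1 library left out), and no member was called between regions under any. Pathway genes lower in cortex CD51+ numbered 42, with 57 under DESeq2, 51 under limma-voom and 33 to 42 with 1 library left out; in hippocampus CD51+ they numbered 25, with 47 under DESeq2 and 15 to 28 with 1 library left out. Against 0 called higher, 1 was in cortex CD51+ under upper-quartile factors, no filter, DESeq2 and robust dispersion, and 0 to 2 with 1 library left out; in hippocampus CD51+ DESeq2 gave 1. Between regions, against 0, no filter gave 1 higher and 6 lower in hippocampus, DESeq2 2 and 4, robust dispersion 1 lower, and leaving out 1 library 0 to 1 each way. Same-number libraries of different groups deviated together no more than others (r -0.048 to 0.027 over 18 same-number pairs and -0.044 to 0.060 over 36 others). With 3 libraries per group this cannot exclude that they came from the same animals. With a replicate block the pathway genes called lower numbered 39 in cortex CD51+ and 25 in hippocampus CD51+. Among uncalled region values, Nfkbia ran from -0.85 to 0.91 with 1 library left out (0.91 without cortex CD51+ replicate 1, 0.025 without hippocampus CD51+ replicate 3), Nfkbib from -0.030 to 2.50 (-0.030 without hippocampus CD51+ replicate 2) and Tnfaip3 from -1.68 to 0.36. In CD51- alone Nfkbiz was -0.65, Tnfaip3 -0.65 and Nlrp3 -0.34. Tnfaip3 also turned to -0.0071 with RLE factors, -0.0072 with DESeq2, -0.94 with limma-voom, -0.51 with the replicate block, -1.68 without hippocampus CD51+ replicate 3 and -0.12 without hippocampus CD51- replicate 3. Over all genes, with 1 library left out, 27 to 125 were called higher and 169 to 443 lower in hippocampus CD51+, 372 to 668 and 476 to 853 in cortex CD51+, and 9 to 50 and 2 to 19 between regions, the counts of 29 and 169 being without hippocampus CD51+ replicate 2, 27 higher without hippocampus CD51- replicate 2, and 476 lower without cortex CD51+ replicate 1. With all 12, higher and lower calls numbered 78 and 340 in hippocampus CD51+ (378 and 1051 under DESeq2, 258 and 627 under limma-voom), 637 and 791 in cortex CD51+ (1472 and 1747 under DESeq2) and 20 and 4 between regions (501 and 230 under DESeq2, 193 and 99 with no filter, 84 and 28 with robust dispersion). The median log2 fold change of all genes in hippocampus CD51+ was -0.22, and 0.0086 with upper-quartile factors. The cause of these shifts was not tested. At these depths a gene with no count over a CD51+ group is limited to about 0.169 CPM in hippocampus and 0.161 CPM in cortex.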
